A study of Mus musculus with 7 samples.

Results

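DNA repair and Fanconi anaemia genes were examined in blood stem and progenitor cells of mice with a floxed Jmjd1c gene and Cre recombinase and of control mice. The set holds 42 genes, taken by symbol from the Ensembl IDs of the deposited table, which lists 39179 gene IDs. All 42 were among the 12813 genes that passed the filter on low values, which asks for 10 or more normalized reads in 3 or more libraries. The cells were LSK cells, the bone marrow fraction without lineage markers that carries Sca-1 and Kit, obtained by cell sorting from 7-week-old mice of strain C57/BL6. The 4 control libraries came from Vav1Cre mice, which carry the Cre recombinase transgene and for which the labels name no floxed allele. The 3 Jmjd1c libraries came from Jmjd1c f/f Vav1Cre mice. There the same recombinase, active throughout the blood system and in some endothelial cells, acts on the floxed gene. No label ties a library to an animal of its own, so the p-values cover the spread among these libraries alone, and that spread may be technical. In bulk RNA, fewer cells of a type and less RNA per cell cannot be told apart.

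The Fanconi pathway removes DNA interstrand crosslinks: a core complex of FANC proteins attaches ubiquitin to the FANCD2 and FANCI pair, and nucleases and homologous recombination then finish the repair. Homologous recombination copies an intact sister strand after end resection, with the help of BRCA1 and BRCA2, whereas non-homologous end joining ligates broken ends directly. Mismatch repair corrects replication errors, and base excision repair removes damaged or misplaced bases such as uracil. Inherited loss of Fanconi genes leads to bone marrow failure, and blood stem cells depend on several of these pathways. JMJD1C, the protein of the deleted gene, is a JmjC-domain protein that is known to demethylate MDC1, a scaffold of damage signalling upstream of the ubiquitin ligase RNF8.

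Many repair genes are transcribed with DNA replication, and E2F factors, which drive S phase genes, are known to bind letters such as TTTCCCGC. These letters and the variants TTTGGCGC, TTTCGCGC and TTTGCCGC were searched on both strands in RefSeq promoters of assembly GRCm38.p6, in windows of 250 bases before to 50 bases after the start of transcription. The table held 37 promoters for 34 of the 42 genes, and Nbn, Rad51d, Fancd2, Xrcc2, Prkdc, Rbbp8, Rad50 and Polb were not matched. For 31 of the 37 windows the transcribed part was found in a transcript. The shares below use all 37. An E2F-type match was present in 8 of the 37 promoters (21.6%), which belong to Brca2, Chek2, Fancg, Msh3, Msh6, Rad51c and Xrcc6. Among the 12107 promoters of all tested genes 3.94% held one, and among the 96 promoters of other repair genes 7.29% did. CCAAT, the letters of the NF-Y factor, occurred in 22 of the 37 promoters (59.5%) against 37.9% for tested genes, and TTTGAA, a cell cycle element of late cycle genes, in 0 of 37 against 12.4%. A match describes the letters of the window and is no evidence of binding. The stretches around the 5 matches that lie fully upstream of the start in genes with a single window follow, on the strand of the gene, with the matched letters in capitals. They show how the matches sit in 5 different repair branches, at Fancg (chr4:43010320-43010379, minus strand), Chek2 (chr5:110839805-110839864, plus), Brca2 (chr5:150522427-150522486, plus), Msh3 (chr13:92355170-92355229, minus) and Xrcc6 (chr15:82016297-82016356, plus).
Fancg: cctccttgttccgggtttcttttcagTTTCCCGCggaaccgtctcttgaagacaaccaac
Chek2: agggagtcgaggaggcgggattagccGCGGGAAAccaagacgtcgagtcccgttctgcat
Brca2: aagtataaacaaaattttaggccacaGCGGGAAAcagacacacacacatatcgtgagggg
Msh3: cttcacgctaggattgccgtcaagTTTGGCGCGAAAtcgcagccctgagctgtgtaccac
Xrcc6: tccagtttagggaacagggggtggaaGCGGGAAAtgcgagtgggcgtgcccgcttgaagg
In Msh3, 2 matches on opposite strands overlap. As shown for each gene in its place, these 5 genes had log2 fold changes between -0.08 (Chek2) and 0.18 (Brca2), and none passed the test.

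Values are given as normalized read counts, that is, reads per gene divided by the size factor of the library. Recovered reads in genes ranged from 4303712 to 6436519 per library. Jmjd1c itself fell by 0.89 on the log2 scale, with 458 to 516 in the controls and 244 to 294 in the Jmjd1c libraries (limma, adjusted p = 0.00407). The counts cover the whole gene, so how complete the deletion was could not be measured. The LSK markers were present, with Kit between 4778 and 7268, Cd34 between 7850 and 8815 and Ly6a, which encodes Sca-1, between 694 and 915, while the lineage genes Cd3e, Cd3d, Ly6g and Pax5 stayed between 0 and 10.5. Other genes of the lineage lists were present: the neutrophil granule genes S100a8 at 2204 to 4651 and Camp at 888 to 2175, the lymphocyte kinase gene Lck at 329 to 554, the B cell receptor gene Cd79b at 368 to 446 and Cd4 at 38.7 to 195. Control 4 stood apart in macrophage markers, whose summed level was 10650 against 2638 to 3750 in the other controls and 2282 to 4206 in the Jmjd1c libraries. Basophil and mast cell markers summed to 5680 to 8803 in controls and 2196 to 4621 in the Jmjd1c libraries. Plasma cell markers summed to 18950 to 29060 in controls and to 12060, 9956 and 30190 in Jmjd1c 1, 2 and 3. In these lists 1 gene each passed, both lower in Jmjd1c. Igha had 1283 to 5497 in controls and 258 to 943 in Jmjd1c libraries (limma, adjusted p = 0.0376). Prss34, of the basophil and mast cell list, had 4421 to 6828 and 1602 to 3409 (limma, adjusted p = 0.0410). The other 6 plasma cell and 5 basophil and mast cell genes tested did not pass. The part of these other cells in the repair gene values was not tested.

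All 42 repair genes were detected in each library, with 11789 to 17816 reads in all, or 0.253% to 0.295% of the reads in genes. Per kilobase of the principal transcript, base excision genes led the order of control levels. Apex1, the endonuclease that cuts at abasic sites, had 1088 ± 84.5 normalized reads per kilobase (SD, n = 4), above every other member in each control library. Parp1, which senses strand breaks, had 370 ± 19.6 and overlapped with Xrcc6, the KU70 subunit of the end-binding KU dimer, at 341 ± 14.9. Rad54l, a motor protein of homologous recombination, followed with 267 ± 12.4, and Polb, the gap-filling polymerase of base excision, overlapped it with 238 ± 25.3. At the low end stood the end-joining ligase gene Lig4 with 4.09 ± 1.0, the Fanconi helicase gene Fancm with 7.60 ± 0.76, the core subunit genes Fance with 8.41 ± 3.39 and Fancf with 8.79 ± 3.03, and Prkdc, the DNA-PK catalytic subunit, with 10.2 ± 1.96. The ranges of these 5 over the control libraries overlapped, except that the range of Lig4 lay below those of Fancm, Fancf and Prkdc. Low levels also mean few reads: Fance rested on 6 to 24 reads per library, Fancf on 8 to 18 and Lig4 on 15 to 22.

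**Figure D1:**
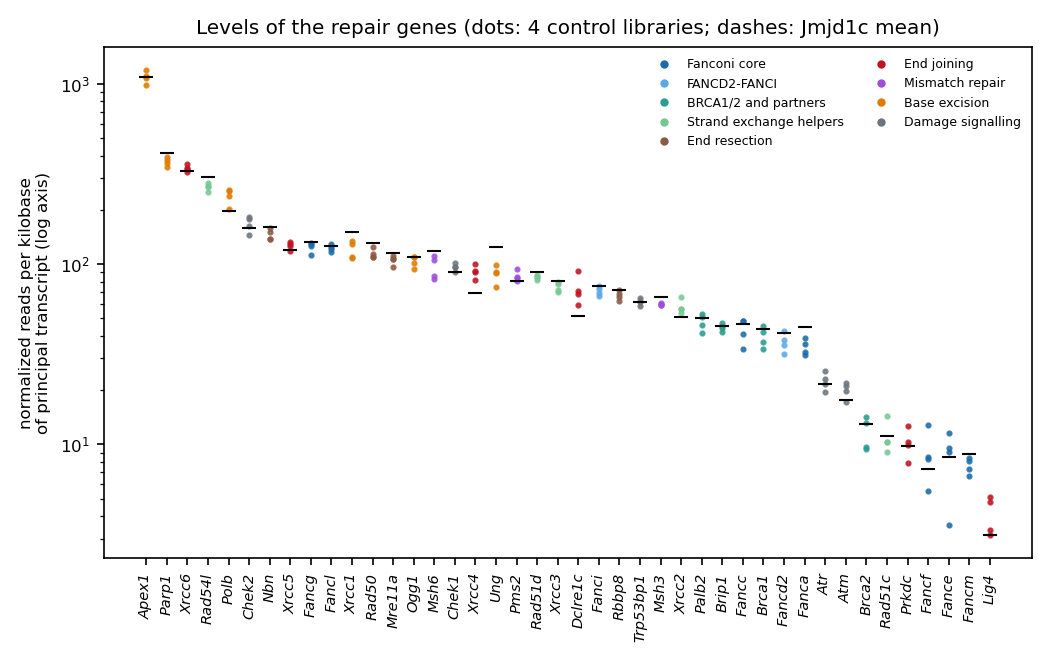
Levels of the 42 repair genes as normalized reads per kilobase of the principal transcript (log axis), ordered by control mean; dots are the 4 control libraries, coloured by repair role, and the black dash is the mean of the 3 Jmjd1c libraries. Apex1 stands highest at a control mean of 1088, Lig4 lowest at 4.09, and the Jmjd1c means keep close to the control dots for most genes.

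The comparison asks whether loss of Jmjd1c changes the transcript levels of the repair machinery in LSK cells. Of the 42 genes 1 rose, the uracil-DNA glycosylase gene Ung, 0 fell and 41 did not pass (limma, adjusted p under 0.05 over all tested genes). Over all tested genes 1.51% rose and 0.289% fell by the same rule. At an unadjusted p under 0.05 limma gave 7 members above and 3 below 0, against 11.9% and 7.84% of all tested genes. The libraries of the groups did not overlap for 6 members with higher values in Jmjd1c (Fancm, Rad54l, Nbn, Mre11a, Msh3 and Ung) and for 1 with lower values (Xrcc4), against 9.74% and 7.1% of all tested genes. The members' median log2 fold change was 0.07 (0.04 without Jmjd1c 1), and 27 of 42 lay above 0, where the median of all tested genes was -0.01 and 48.45% lay above 0. Most intervals were narrow: for 35 of 42 (83.3%) the 95% interval of the fold change lay within 1.5-fold in both directions, against 62.3% of all tested genes, and for all 42 it lay within 2-fold. The members were also more abundant, with a median control value of 248 against 158 for all tested genes. The 7 genes whose interval reached past 1.5-fold were Ung, Fanca, Xrcc4, Dclre1c and the low-count Fance, Fancf and Lig4.

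**Figure D2:**
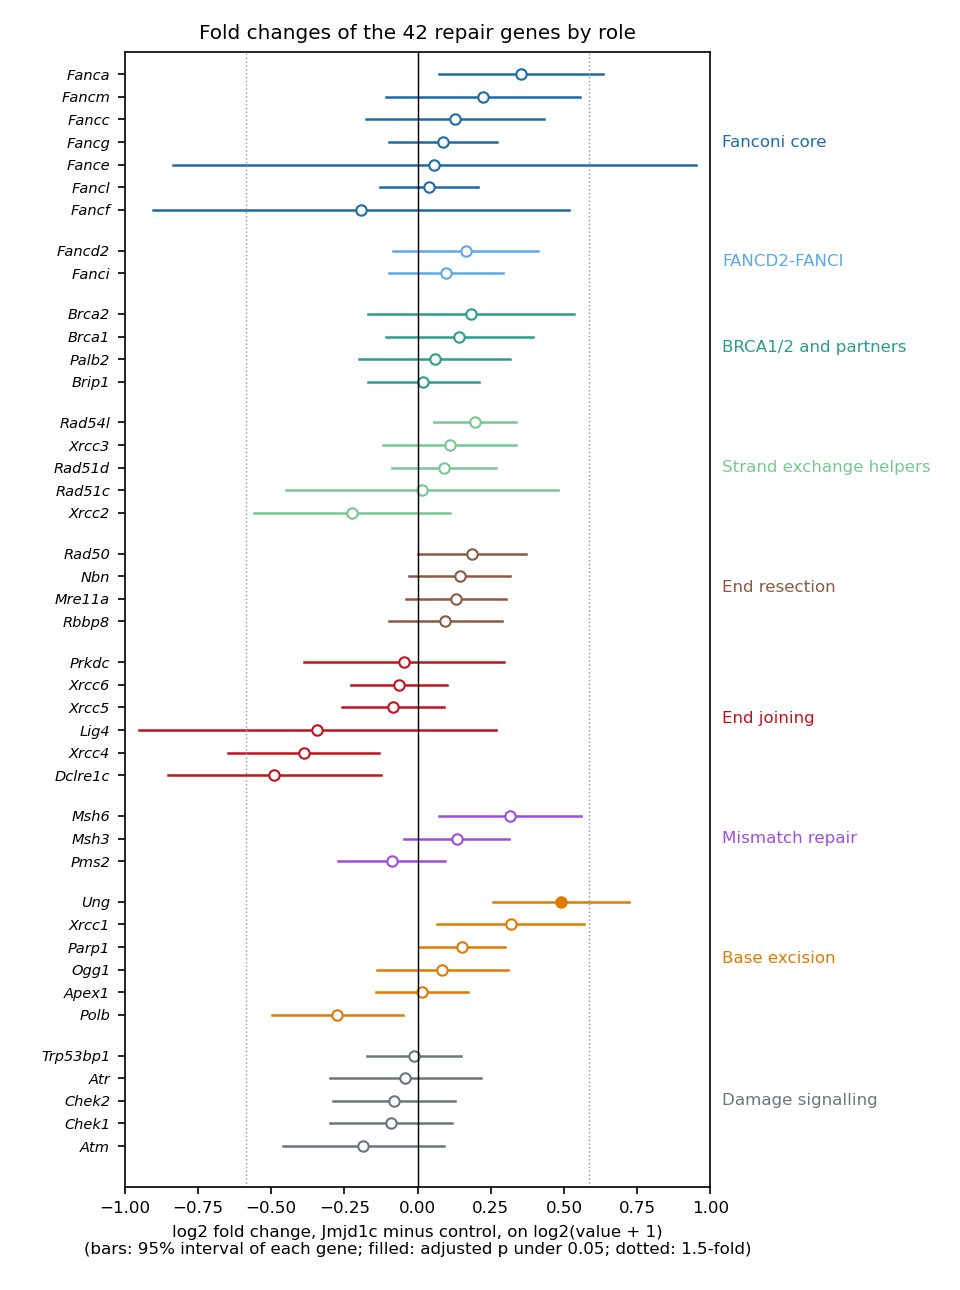
Log2 fold change of each of the 42 genes (Jmjd1c minus control, on log2(value + 1)) grouped by repair role, with bars for the 95% interval, a filled point for an adjusted p under 0.05 in limma and dotted lines at 1.5-fold. Ung alone is filled, all 6 end-joining genes and all 5 signalling genes lie left of 0, and the widest bars belong to Fance, Fancf and Lig4.

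Of the 7 genes of the Fanconi core complex 0 passed, 6 lay above 0, and the median log2 fold change was 0.09 (0.19 without control 3, 0.04 without control 2 and 0.14 without Jmjd1c 1). Fanca, the subunit most often mutated in Fanconi anaemia, had 162, 146, 175 and 141 normalized read counts in controls 1 to 4 and 205, 228 and 168 in Jmjd1c 1 to 3. Jmjd1c 1 and 2 lay above all controls and Jmjd1c 3 lay within them. Its log2 fold change was 0.35 ± 0.13 (SE; limma, unadjusted p = 0.0178, adjusted p = 0.166). Fancm, which moves branched DNA and anchors the complex on it, had 62.4, 51.9, 65.3 and 56.8 in controls and 65.4, 72.1 and 69.3 in Jmjd1c libraries. The groups met almost without a gap, and the log2 fold change of 0.22 ± 0.15 did not pass (limma, adjusted p = 0.438). Fancc, a subunit that bridges others, had 0.13, Fancg, a scaffold subunit, 0.09 and Fancl, the ubiquitin ligase itself, 0.04. Fancl was among the steadiest members, between 320 and 360 in all 7 libraries. Fance (0.06) and Fancf (-0.19) had standard errors of 0.41 and 0.32, too wide to place either side of 0, and the sign of Fance turned with the processing.

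FANCD2 and FANCI, the pair that the core complex modifies, are the step after it. Fancd2 ranged from 175 to 234 in controls and from 209 to 239 in Jmjd1c libraries, with a log2 fold change of 0.16 ± 0.11. Fanci ranged from 309 to 351 and from 316 to 374, with 0.10 ± 0.09. In both genes Jmjd1c 1 and 2 had higher values than Jmjd1c 3, and neither passed (limma, adjusted p = 0.441 and 0.584).

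Homologous recombination was covered by 13 members, of which 0 passed and 12 lay above 0, with a median log2 fold change of 0.11. BRCA2 acts on resected ends, PALB2 joins it to BRCA1, and BRIP1 is a helicase that binds BRCA1. Their genes had 0.18 (Brca2), 0.06 (Palb2), 0.14 (Brca1) and 0.02 (Brip1), with overlapping groups in each. Brip1 ranged from 290 to 326 in controls and from 285 to 331 in Jmjd1c libraries, and the sign of both Brip1 and Palb2 turned with single libraries left out.

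Among Rad54l, Rad51c, Rad51d, Xrcc2 and Xrcc3, Rad54l had the smallest p. It had 850, 805, 817 and 760 in controls and 905, 926 and 944 in the Jmjd1c libraries, so every Jmjd1c library lay above every control. The log2 fold change was 0.20 ± 0.06 (limma, unadjusted p = 0.01, adjusted p = 0.130), and it stayed between 0.17 and 0.22 when each library was left out in turn. The other 4 genes, whose proteins form complexes that assist strand exchange, had 0.09 (Rad51d), 0.11 (Xrcc3), 0.02 (Rad51c) and -0.22 (Xrcc2). Xrcc2 was split within its group, with 213 in Jmjd1c 1 and 146 and 134 in Jmjd1c 2 and 3, against 174 to 214 in controls. Rad51c was at 35.2 to 56.7, and its sign turned with single libraries left out.

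All 4 end-resection genes lay above 0, with a median of 0.14, and 0 passed. MRE11A, RAD50 and NBN form the complex that recognises broken ends and starts their resection, and RBBP8 (CtIP) stimulates it. Nbn had 347, 351, 380 and 403 in controls and 407, 405 and 413 in Jmjd1c libraries. Mre11a had 351, 363, 316 and 352 in controls and 377, 382 and 375 in Jmjd1c libraries. In both genes the Jmjd1c libraries were close together and just above the highest control, and the log2 fold changes were 0.14 ± 0.08 and 0.13 ± 0.08 (limma, adjusted p = 0.337 and 0.375). Rad50 had 583, 562, 643 and 566 in controls and 703, 714 and 595 in Jmjd1c libraries. Jmjd1c 3 lay within the controls, and the value was 0.19 ± 0.08 (limma, unadjusted p = 0.0489, adjusted p = 0.251). Rbbp8 had 0.09 ± 0.09.

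**Figure D3:**
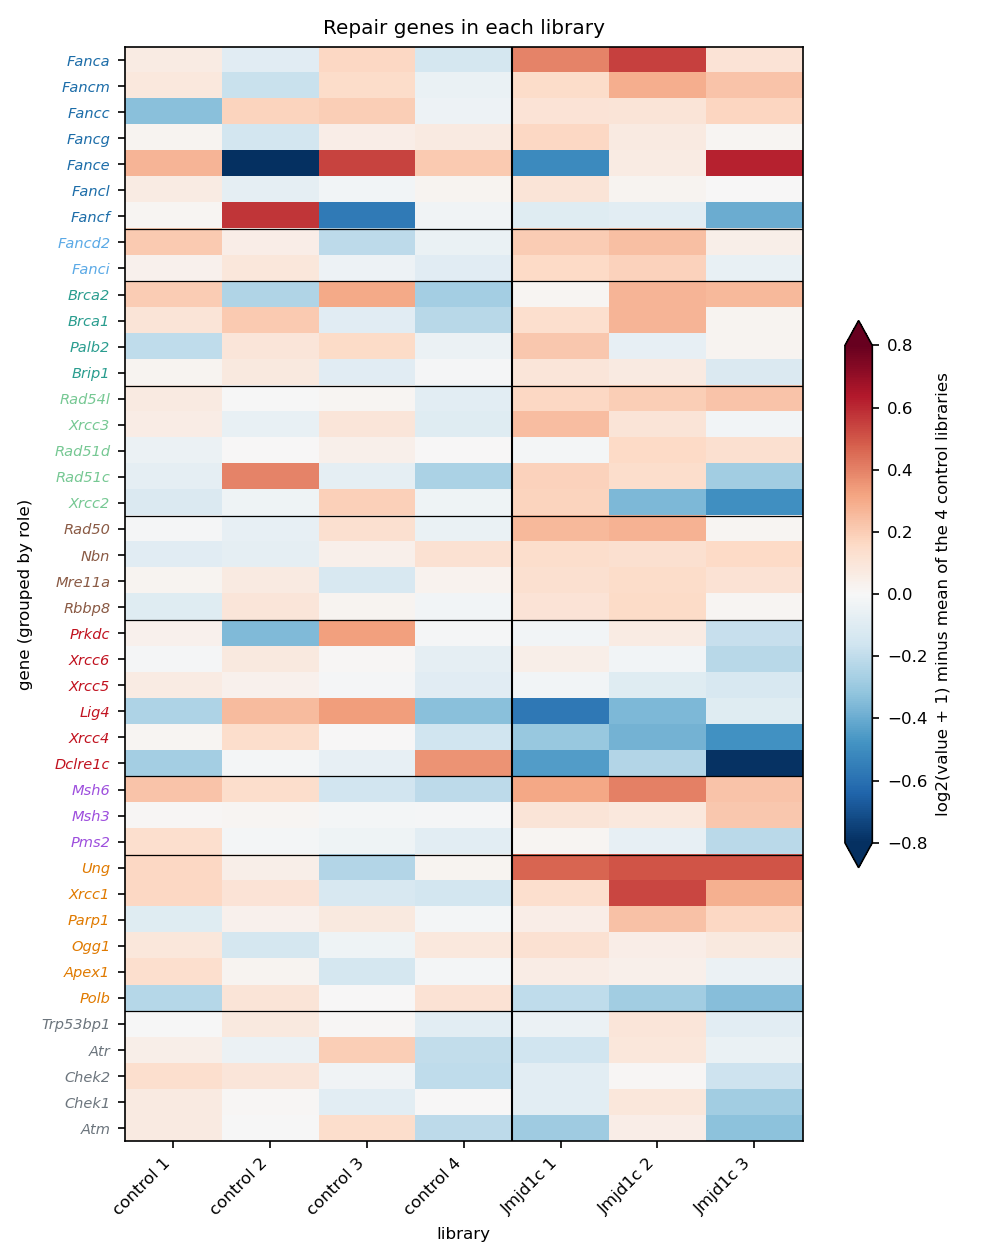
Each of the 42 genes in each of the 7 libraries, as log2(value + 1) minus the mean of the 4 control libraries, with red above and blue below that mean and genes grouped by role. Ung is above the control mean in all 3 Jmjd1c libraries, Xrcc4, Lig4 and Dclre1c are below it in all 3, and Fance and Fancf vary as widely among controls as between groups.

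End joining was the role with the lowest median, -0.21: all 6 genes lay below 0 and 0 passed. With the stricter filter of 50, which drops Lig4, the median of the other 5 was -0.08, close to that of damage signalling. After a correction for the transcripts' GC content and their length 4 of the 6 lay below 0, without control 3 it was 5 and without Jmjd1c 3 it was 4, so the shared direction rests on single libraries for the genes nearest 0. Xrcc4, the scaffold that stabilises DNA ligase IV, had 142, 154, 140 and 125 in controls and 113, 107 and 99.8 in Jmjd1c libraries. It is the 1 member whose Jmjd1c libraries all lay below the controls, with a log2 fold change of -0.39 ± 0.12 (limma, unadjusted p = 0.00678, adjusted p = 0.111), which was -0.44 to -0.34 without each library and -0.28 after the GC and length correction. Dclre1c, the Artemis nuclease that opens hairpin ends, had 146, 175, 169 and 227 in controls and 130, 150 and 102 in Jmjd1c libraries. Jmjd1c 2 lay above control 1, and the log2 fold change was -0.49 ± 0.17 (limma, unadjusted p = 0.0128, adjusted p = 0.143). It was -0.62 to -0.34 without each library, nearest 0 without Jmjd1c 3 (-0.34) and control 4 (-0.37). After the GC and length correction it was -0.44. Lig4 had 16.8, 24.1, 25.6 and 15.7 in controls and 13.2, 15.5 and 18.8 in Jmjd1c libraries, with -0.34 ± 0.28. The KU genes Xrcc5 (-0.08 ± 0.08) and Xrcc6 (-0.06 ± 0.07) and Prkdc (-0.04 ± 0.16) lay close to 0, and their 95% intervals lay within 1.5-fold. The genes with the more negative values in this branch were those of ligation and end processing, and those of end binding lay nearer 0; the difference between them was not tested.

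Of the 3 mismatch repair genes 0 passed. Msh6, whose protein recognises base mismatches, had 474, 447, 364 and 350 in controls and 503, 537 and 474 in Jmjd1c libraries. Jmjd1c 3 was at the level of control 1, and the log2 fold change was 0.31 ± 0.11 (limma, unadjusted p = 0.0155, adjusted p = 0.155). Msh3, whose protein recognises longer loops, had 238, 239, 234 and 235 in controls and 254, 250 and 275 in Jmjd1c libraries. Its control libraries were nearly identical and all Jmjd1c libraries lay above them, yet the difference was small, 0.13 ± 0.08 (limma, adjusted p = 0.393). Pms2, which cuts the new strand, had -0.09 ± 0.08.

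Base excision repair held the member that passed. Ung (ENSMUSG00000029591; mm10 chromosome 5, 114130386 to 114139323, plus strand) encodes the glycosylase that removes uracil from DNA, and its gene makes a nuclear and a mitochondrial form that these counts do not separate. It had 211, 194, 160 and 191 normalized read counts in controls 1 to 4 and 260, 267 and 267 in Jmjd1c 1 to 3. All 3 Jmjd1c libraries lay above all 4 controls and varied less among themselves. Means were 189 ± 21.5 (SD, n = 4) and 264 ± 3.97 (SD, n = 3), on 137 to 314 reads per library. Ung rose by 0.49 ± 0.11 on the log2 scale (limma, 95% interval 0.26 to 0.72, adjusted p = 0.0466). The call was close to the threshold: the value stayed between 0.41 and 0.55 without each library, but Ung was still called only without Jmjd1c 1 (limma, adjusted p = 0.0499) and not without any other single library, control 1, 2, 3 or 4 or Jmjd1c 2 or 3 (adjusted p = 0.0534 to 0.212). After the GC and length correction it was 0.42 (limma, adjusted p = 0.0846). Without the intensity trend, where 0 of all tested genes passed, its adjusted p in limma was 0.150.

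The other base excision members did not pass. Xrcc1, the scaffold that gathers the single-strand break enzymes, had 341, 327, 277 and 275 in controls and 333, 440 and 370 in Jmjd1c libraries. Jmjd1c 1 lay within the controls, and the log2 fold change was 0.32 ± 0.11 (limma, unadjusted p = 0.0175, adjusted p = 0.164), or 0.11 after the GC and length correction. Parp1 had 1336, 1468, 1513 and 1416 in controls and 1488, 1683 and 1606 in Jmjd1c libraries, with 0.15 ± 0.07 (limma, unadjusted p = 0.0452, adjusted p = 0.243). Jmjd1c 1 lay within the controls here too. Polb had 243, 307, 286 and 309 in controls and 247, 235 and 224 in Jmjd1c libraries, and control 1 lay at the Jmjd1c level. It was the base excision gene below 0, at -0.27 ± 0.10 (limma, unadjusted p = 0.0202, adjusted p = 0.175). Ogg1, the glycosylase for oxidised guanine, had 0.08 ± 0.10, and Apex1 had 0.02 ± 0.07. Apex1 shares 61.7% of its exon bases with Pip4p1 on the other strand, so if the counting did not use strand, reads of the pair could be mixed.

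**Figure D4:**
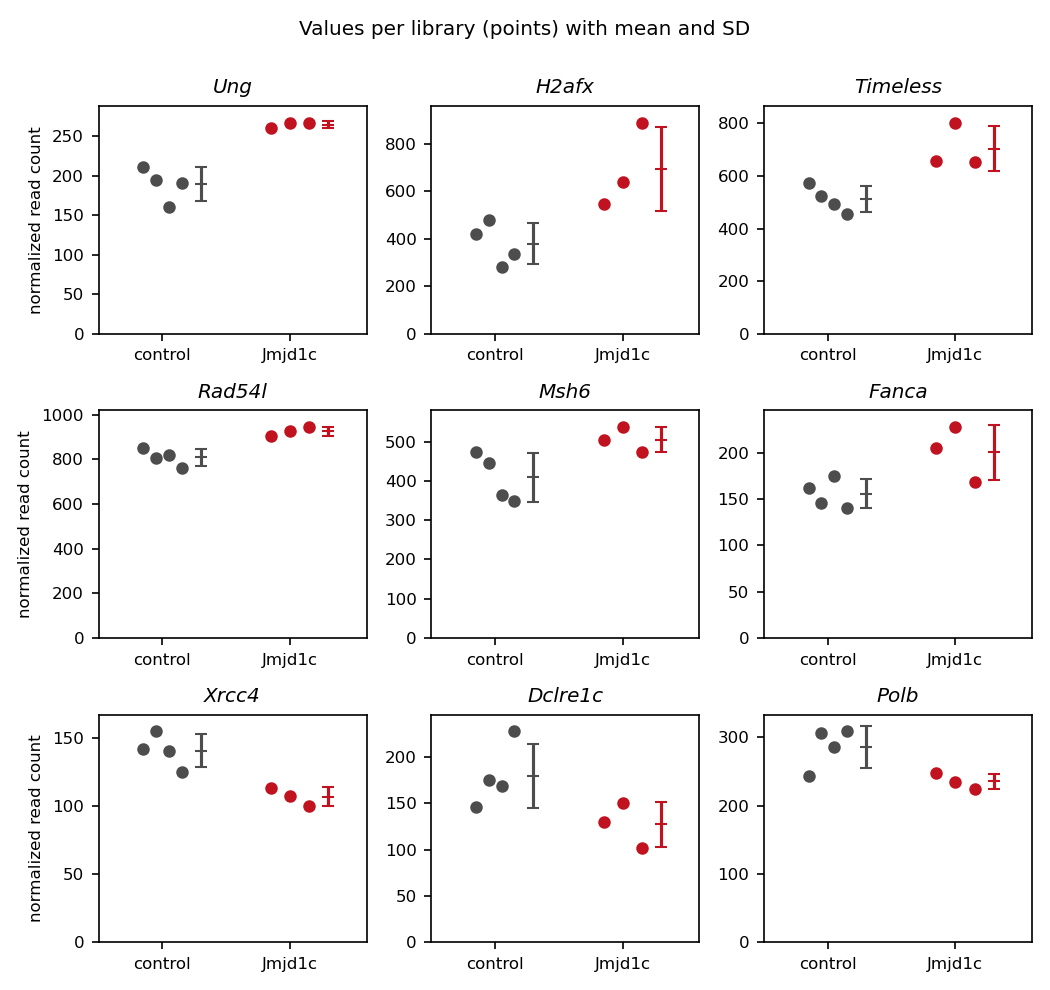
Normalized read counts per library (points) with mean and SD beside them for 6 members with an unadjusted p under 0.05 in limma besides Ung, for Ung, and for H2afx and Timeless of the wider repair lists; grey is control (n = 4) and red is Jmjd1c (n = 3), and every axis starts at 0. The groups are apart for Ung, H2afx, Timeless, Rad54l and Xrcc4 and overlap for Msh6, Fanca, Dclre1c and Polb.

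The 5 damage-signalling members lay at or just below 0, with a median of -0.08, and 0 passed. The median was -0.036 without control 1, -0.035 without Jmjd1c 3, -0.13 without Jmjd1c 2 and -0.028 after the GC and length correction. ATM and ATR are the kinases that respond to breaks and to stalled replication, CHEK2 and CHEK1 the kinases they activate, and TRP53BP1 a chromatin-bound factor that favours end joining. Atm had the lowest value, -0.19 ± 0.13, with 160, 202 and 155 in the Jmjd1c libraries against 168 to 214 in controls. Chek1 had -0.09 ± 0.09, Chek2 -0.08 ± 0.10, Atr -0.04 ± 0.12 and Trp53bp1 -0.01 ± 0.07. The signs of Atr, Chek1 and Trp53bp1 turned with the processing, and after the GC and length correction 3 of the 5 lay below 0. All 5 had a 95% interval within 1.5-fold.

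The remaining genes of these pathways give the wider picture. Of 106 other repair genes listed, 105 were tested, 2 rose and 0 fell (limma), with a median log2 fold change of 0.03. At an unadjusted p under 0.05 limma gave 12 above and 2 below 0, and the groups did not overlap for 10 with higher and 3 with lower values. Over all tested genes these shares were 11.9% and 7.84% for the unadjusted p and 9.74% and 7.1% for groups that did not overlap. Both genes that rose belong to damage signalling, where 13 of the 15 listed genes did not pass. H2afx, the histone variant that ATM phosphorylates at breaks, had 418, 480, 282 and 338 in controls and 548, 640 and 889 in Jmjd1c libraries and rose by 0.86 ± 0.19 (limma, adjusted p = 0.0452). Timeless, of the replication fork protection complex, had 572, 523, 493 and 455 in controls and 656, 803 and 654 in Jmjd1c libraries and rose by 0.46 ± 0.10 (limma, adjusted p = 0.0431). Every Jmjd1c library lay above every control in both genes, and Jmjd1c 3 was the highest for H2afx. As for Ung, both were called without Jmjd1c 1 and not without any other single library, and neither was called after the GC and length correction (0.66 and 0.34; limma, adjusted p = 0.0785 and 0.109). H2afx has near copies among the histone H2A genes, so its reads are uncertain.

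MDC1, the known substrate of JMJD1C, reads phosphorylated H2AX and recruits RNF8, which with RNF168 builds the ubiquitin marks that bring BRCA1 and TRP53BP1 to breaks. Mdc1 had 212, 188, 145 and 164 in controls and 167, 242 and 240 in Jmjd1c libraries. Jmjd1c 1 lay within the controls, and the log2 fold change was 0.28 ± 0.16 (limma, adjusted p = 0.356). Rnf8 ranged from 26.8 to 45.9 in controls and from 25.8 to 37.2 in Jmjd1c libraries, with 0.04 ± 0.25, and Rnf168 had 0.07 ± 0.09. In this chain H2afx is the 1 gene that passed. Transcript levels do not measure the methylation of MDC1 or its recruitment to breaks.

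In the other repair lists no gene passed. Blm, the helicase that dissolves joined DNA molecules, had 167, 171, 166 and 169 in controls and 182, 241 and 228 in Jmjd1c libraries, with 0.36 ± 0.11 (limma, adjusted p = 0.119, and 0.0316 without Jmjd1c 1). Ercc1, of the nuclease that incises at crosslinks, had 258, 270, 273 and 264 in controls and 234, 240 and 221 in Jmjd1c libraries, with -0.20 ± 0.08 (limma, adjusted p = 0.211). Blm was above and Ercc1 was below the controls in every Jmjd1c library. The replicative ligase gene Lig1 (0.19), the translesion ligase gene Rad18 (0.22) and the excision nuclease gene Ercc5 (-0.33) also did not pass.

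The repair genes were read beside lists of cycling and of p53 target genes. All 19 cycling markers lay above 0 and 0 passed in limma, 6 with an unadjusted p under 0.05, and the median was 0.09. Their summed level was 24250 to 27180 in controls and 25970 to 29780 in Jmjd1c libraries, so the groups overlapped. Of 15 p53 target genes 13 were tested and 0 passed in limma, with 3 at an unadjusted p under 0.05, all above 0, and a median of 0.01. Over all tested genes limma gave 11.9% above and 7.84% below 0 at that unadjusted p. Whether the share of cycling cells bears on Ung, Rad54l, Msh6 or the other replication-linked genes was not tested.

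The fold changes ran with base composition. Over the 42 members Pearson's r between the GC content of the transcripts and the log2 fold change was 0.39, and over 12677 tested genes with an annotation it was 0.27. This is a description across genes, which share the same 7 libraries and are not independent replicates. The median GC content was 46.2% for the members and 49.8% for all tested genes. By role it was 43.0% for end joining and 42.7% for damage signalling, the roles below 0, and 53.2% for base excision. Ung has a GC content of 53.7%, Xrcc1 of 57.6%, Xrcc4 of 42.2% and Dclre1c of 42.8%. After the GC and length correction the members' median was 0.08, 29 of 42 lay above 0 and 0 passed, with 7 at an unadjusted p under 0.05 in limma. Over all 12813 tested genes limma gave 2259 at that unadjusted p after the correction.

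**Figure D5:**
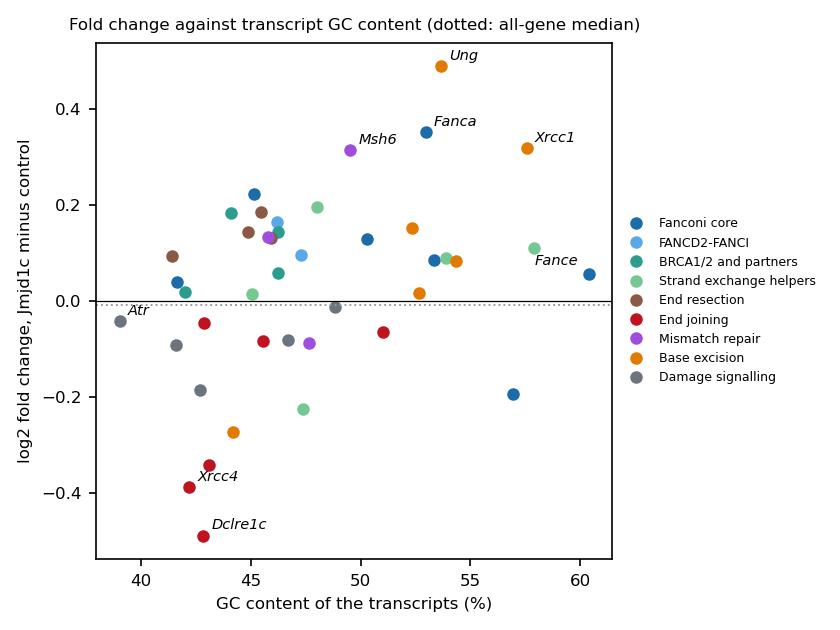
Log2 fold change (Jmjd1c minus control) against the GC content of the transcripts in percent for the 42 genes, coloured by role, with the dotted line at the median of all tested genes. Most end-joining and signalling genes gather at the low-GC side below 0, while Ung, Fanca and Xrcc1 lie at the upper right, and r is 0.39.

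Several members share exon bases with a gene on the opposite strand, and whether the counting used strand is not given in the sources used here. Beside Apex1 these include Fanci with Polg (16.0% of its exon bases), Rad54l with Lrrc41 (15.4%), Trp53bp1 with Tubgcp4 (15%), Fancf with Gas2 (15%), Fancl with Vrk2 (13.7%) and Fanca with Zfp276 (10.5%). For Xrcc4 and Tmem167 the shared part was 2.66%, and no overlap was found for Ung.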

How the data were processed

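The authors deposited a table of signal values, 1 per gene and library. Per the submitters' processing notes the authors used Trim Galore 0.2.8, STAR, HTSeq 0.6.1p1, DESeq 1.18.0 and build mm10, while annotation release, strand setting and filters are not given there or in the labels. RNA was extracted with Trizol and amplified with a SMARTer ultra-low-input kit, per the labels' protocols. Within each column the deposited signal values were whole multiples of 1 step (0.800 to 1.21), so 100% gave whole reads within 0.01 of a read. Symbols matched 37607 of 39179 IDs. Positions, GC content and lengths came from GENCODE M21.

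The test was limma-trend (limma 3.58.1, R 4.3.3) on log2(value + 1), 4 control against 3 Jmjd1c libraries, fitted on the 12813 genes that reached 10 in 3 or more libraries. Adjustment was by Benjamini-Hochberg over these genes and the threshold was 0.05. Fold changes on this scale understate those of low genes. Errors are SDs for means and standard errors for log2 fold changes. The members and the other lists were chosen with earlier results of these data known. Named genes are all 42 members, Jmjd1c, Mdc1, Rnf8 and Rnf168, and of each other repair list the genes that passed or else the one with the smallest p; a few of these genes are not reported here. In simulated data for this comparison with 12813 genes, 57% of genes changed 1.5-fold and 98% of genes changed 2-fold were recovered, 5.49% of 164 calls were unchanged genes, and 0 were called when nothing changed. The changes were placed only in genes with a mean of 50 or more, so the recovered shares do not cover Fance, Fancf, Lig4 or Rad51c. Each gene was drawn independently, without shifts shared by the genes of a library. Alternatives were pseudocounts of 0.5 and 10, no filter and a filter of 50, TMM, quantile normalization, no intensity trend, array weights, a replicate block, edgeR 4.0.16 and DESeq2 1.42.0 on recovered reads, a correction for GC content and length (136 tested genes had no annotation), and leaving out each library.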

Additional observations from a re-analysis of the deposited data

Results flagged for a closer look

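Rnf8, the ubiquitin ligase recruited by MDC1, had 45.9 normalized read counts in control 2, against 28.0 in the next control and 26.8 in the lowest. The gap took up 0.937 of the range of the 4 controls, above Dixon's critical value of 0.829. Of 56 genes examined in this way it was the 1 that stood out, which is fewer than the 1 in 20 that chance gives. The Jmjd1c libraries were not examined in this way.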

How the results depend on the processing

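The members' median log2 fold change stayed above 0 under every alternative run, at 0.04 to 0.09 without each library. The count of 1 member called held with both pseudocounts, both filters, TMM, array weights, edgeR and DESeq2. It was 0 with quantile normalization, without the intensity trend and after the GC and length correction, where limma gave 8, 8 and 7 members at an unadjusted p under 0.05, and 0 to 1 without each library, with 6 to 10. The count of 2 other repair genes became 1, 0 and 0 under those 3 settings. There 9, 9 and 12 had an unadjusted p under 0.05 in limma. Without each library the count was 0 to 3, with 3 to 15 at that unadjusted p. Over all genes, limma gave 2514, 2213 and 2259 of 12813 at that unadjusted p under those 3 settings. Without each library it gave 1678 to 2829 of the 12689 to 12738 genes tested. Without the intensity trend Jmjd1c kept -0.89 but did not pass (limma, adjusted p = 0.117), as did none of the 12813 genes. The cause of these losses was not tested. Called counts over all genes also moved: DESeq2 gave 473 higher and 117 lower against 194 and 37, and the GC and length correction 64 and 18. Without single libraries they were 55 and 17 (control 1), 0 and 3 (control 2, control 3 and Jmjd1c 2 each), 1 and 8 (Jmjd1c 3), 168 and 43 (control 4) and 514 and 117 (Jmjd1c 1).

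With the replicate number as a block, 0 members and 0 other repair genes were called, with 5 of each at an unadjusted p under 0.05 in limma. Over all genes 7 rose and 7 fell, and limma gave 1901 of 12813 at that unadjusted p. Ung had 0.50 (limma, adjusted p = 0.155). Same-numbered libraries did not deviate together (r = -0.15, -0.0021 and 0.02), and the largest r, 0.32, was between control 4 and Jmjd1c 1. The deviations were taken from the mean of each small group, so these values cannot exclude a pairing by number. In the block fit Rad51c had -0.069 and Rnf8 -0.0093, the same values as without control 4. Only the controls have a library numbered 4, so control 4 does not enter the fold changes of the block fit.

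Signs turned 42 times over 13 named genes, 12 of them members, none called. Fance had -0.032 in edgeR, -0.012 in DESeq2, -0.20 after the GC and length correction and -0.28 to 0.34 without each library. After that correction Xrcc3 had -0.054, Xrcc5 0.0058, Prkdc 0.0062, Atr 0.11, Chek1 0.020 and Rnf8 -0.0052. Brip1 had -0.0090 with quantile normalization, and with array weights Trp53bp1 had 0.0031 and Rnf8 -0.025. Ranges without each library were -0.021 to 0.12 for Palb2, -0.020 to 0.087 for Brip1, -0.069 to 0.16 for Rad51c, -0.12 to 0.013 for Xrcc6, -0.16 to 0.065 for Prkdc, -0.031 to 0.060 for Apex1, -0.11 to 0.024 for Atr, -0.18 to 0.0027 for Chek1, -0.066 to 0.025 for Trp53bp1 and -0.055 to 0.22 for Rnf8. Depth limits Fance, Fancf, Lig4 and Rad51c most, at 6 to 59 reads per library.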
